A study of Homo sapiens with 6 samples.

Results

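The syndecans SDC1, SDC2, SDC3 and SDC4 and the glypican GPC1 are 5 of the 19491 genes measured by RNA sequencing in PC-3 cells, an established line derived from a bone metastasis of a prostate cancer. They were chosen by gene symbol, with earlier results of the same comparisons known, so the differences between groups given for these 5 genes are a description and carry no test. The study treated PC-3 cells with inhibitors of ASCT2 (the product of SLC1A5), a carrier that brings glutamine and other neutral amino acids into cells. One group was left untreated (control), one received GPNA (L-γ-glutamyl-p-nitroanilide) at 1 mM and one received BenSer (benzylserine) at 10 mM, each for 48 h. All groups were grown in medium with fetal bovine serum, and a single cell line stands for the tissue. The paper proposes that BenSer also acts outside ASCT2, since earlier work in oocytes found that it inhibits the carrier LAT1 too. It also reports lower leucine uptake with BenSer in PC-3 cells. Which target a BenSer value reflects was not tested. Since the doses differed and the targets may differ, a difference between BenSer and GPNA is one between those 2 treatments as given.

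Syndecans are transmembrane proteins that carry long heparan sulphate chains on their extracellular domain, whereas glypicans carry such chains on a protein held to the membrane by a lipid anchor. The chains bind growth factors, chemokines and matrix proteins and present them to their receptors. SDC1 is the main syndecan of epithelial cells and of plasma cells, SDC2 is typical of mesenchymal cells, SDC3 of neural tissue, and SDC4 is found in most cells at adhesion sites. GPC1 is the most widely expressed glypican.

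In the GRCh37 build (GENCODE annotation) SDC1 (ENSG00000115884) spans chr2:20400558-20425194 on the minus strand, SDC3 (ENSG00000162512) chr1:31342313-31381605 on the minus strand and SDC4 (ENSG00000124145) chr20:43953928-43977064 on the minus strand. GPC1 (ENSG00000063660) spans chr2:241375080-241407493 on the plus strand. The main transcript of each syndecan has 5 exons and that of GPC1 has 9. The exons of the 5 genes overlapped no exon of another annotated gene, although GPC1 lies over an antisense RNA gene and the microRNA gene MIR149, and SDC4 over a long non-coding RNA gene, within introns.

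The promoters of SDC1 and SDC4 are shown because these were the most abundant members and their levels with BenSer differed from the control in opposite directions. Each sequence is the 250 bases before a RefSeq transcription start (build GRCh38.p14), read 5′ to 3′ on the minus strand on which both genes lie. Capitals mark the GC box core GGGCGG or its reverse complement CCGCCC, the sequence bound by SP1-family factors. The first start of SDC1 is preceded by chr2:20225476-20225725, the second by chr2:20225131-20225380, and the start of SDC4 by chr20:45348425-45348674.
SDC1 first start: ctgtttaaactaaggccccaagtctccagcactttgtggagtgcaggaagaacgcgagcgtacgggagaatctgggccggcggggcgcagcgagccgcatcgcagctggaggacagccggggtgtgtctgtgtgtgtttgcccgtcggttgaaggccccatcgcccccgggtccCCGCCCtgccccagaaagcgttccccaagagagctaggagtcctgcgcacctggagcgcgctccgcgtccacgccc
SDC1 second start: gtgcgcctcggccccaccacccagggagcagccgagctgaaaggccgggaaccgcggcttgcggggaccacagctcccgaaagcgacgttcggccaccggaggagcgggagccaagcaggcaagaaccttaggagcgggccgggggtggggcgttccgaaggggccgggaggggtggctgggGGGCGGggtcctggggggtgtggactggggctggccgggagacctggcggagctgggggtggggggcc
SDC4: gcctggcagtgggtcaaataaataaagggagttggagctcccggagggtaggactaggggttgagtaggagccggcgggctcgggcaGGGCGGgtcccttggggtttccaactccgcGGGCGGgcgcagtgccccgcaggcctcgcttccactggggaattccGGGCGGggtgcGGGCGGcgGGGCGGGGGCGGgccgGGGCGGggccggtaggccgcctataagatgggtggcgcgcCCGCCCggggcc

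Each SDC1 window held 1 GC box core and the SDC4 window held 8, counted on both strands with overlaps allowed. The windows of SDC3 and GPC1 held 5 and 4. GC content was 66.4% and 75.2% for SDC1, 73.6% for SDC4, 83.6% for SDC3 and 84.0% for GPC1, against a median of 58.0% over 35116 promoter windows of the same length. GGGCGG was found in 42.6% of all those windows on either strand. Other motif letters searched on both strands, with none in these 5 windows, were CCAAT (in 32.0% of all windows), TATAAA (10.7%), TGANTCA (6.57%), CACGTG (6.34%), TGATGNAA (3.14%), TTTCCCGC (1.39%) and TTTGGCGC (0.550%). These are matches of letters and not measured binding. No window of SDC2 was examined.

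Each group was represented by 2 libraries. BenSer libraries were the deepest, at 32178154 and 31943025 reads, followed by GPNA at 25798967 and 25452745 reads and the control at 23227180 and 23077986 reads. Between 51.6 and 52.7% of reads lay on the listed genes. Within a group, the 2 libraries differed little more than read sampling allows (chi-square per degree of freedom of 1.06, 1.05 and 1.05 for control, GPNA and BenSer). They were therefore counted as 1 sample, with no p-value for a treatment. Where libraries are said to overlap or not, this describes their values only. The share of all genes whose libraries do not overlap was not counted, so nothing is read from it. Levels are counts per 1000000 reads of the library (CPM), and differences are in log2(mean CPM + 1). Each interval is the exact binomial (Clopper-Pearson) interval at 95% from the reads of both libraries together, so it covers counting error alone. In bulk RNA, fewer cells of a type and less RNA per cell cannot be told apart. The epithelial markers were expressed, 5 of 5 being listed with a summed 1252 CPM in untreated cells, 1246 CPM after GPNA and 1366 CPM after BenSer. The single markers did not all follow that sum. With BenSer against control, 3 were higher and 2 lower (KRT8 and KRT18). Plasma cell and leukocyte markers, which share SDC1 with epithelium, were near absent, with 1 of 7 listed and a summed level between 0 and 0.303 CPM in single libraries. Of the fibroblast markers, 4 of 7 were listed, with a summed level between 5.97 and 8.78 CPM in single libraries. Their sum was 7.99 CPM in untreated cells, 5.99 CPM after GPNA and 7.04 CPM after BenSer. Of the endothelial markers, 0 of 3 were listed.

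SDC1 was the most abundant of the 5 genes in untreated cells. Per kilobase of exon, its level in the control was 58.0 CPM per kb (interval 56.9 to 59.2), which ranked 243 of 18931 genes. SDC4 followed at 23.9 CPM per kb (23.1 to 24.8) and SDC2 at 6.36 CPM per kb (6.01 to 6.73). GPC1 and SDC3 were lower still, at 3.46 (3.25 to 3.68) and 2.46 (2.29 to 2.64) CPM per kb. In the control, each neighbour in this order was separated from the next beyond its counting interval.

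The order was the same with GPNA, where the levels per kilobase were 51.2 for SDC1, 24.5 for SDC4, 4.80 for SDC2, 3.07 for GPC1 and 2.43 CPM per kb for SDC3. With BenSer, SDC1 was at 30.8 CPM per kb (30.0 to 31.5) and SDC4 at 27.8 CPM per kb (27.0 to 28.6), so that both genes were closer to each other than in the other groups. SDC2 was at 6.89 CPM per kb with BenSer. GPC1 at 3.33 (3.16 to 3.51) and SDC3 at 3.29 (3.12 to 3.46) CPM per kb were not separated there, although with the length of the main transcript alone they were at 5.84 and 4.43 CPM per kb.

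**Figure D1:**
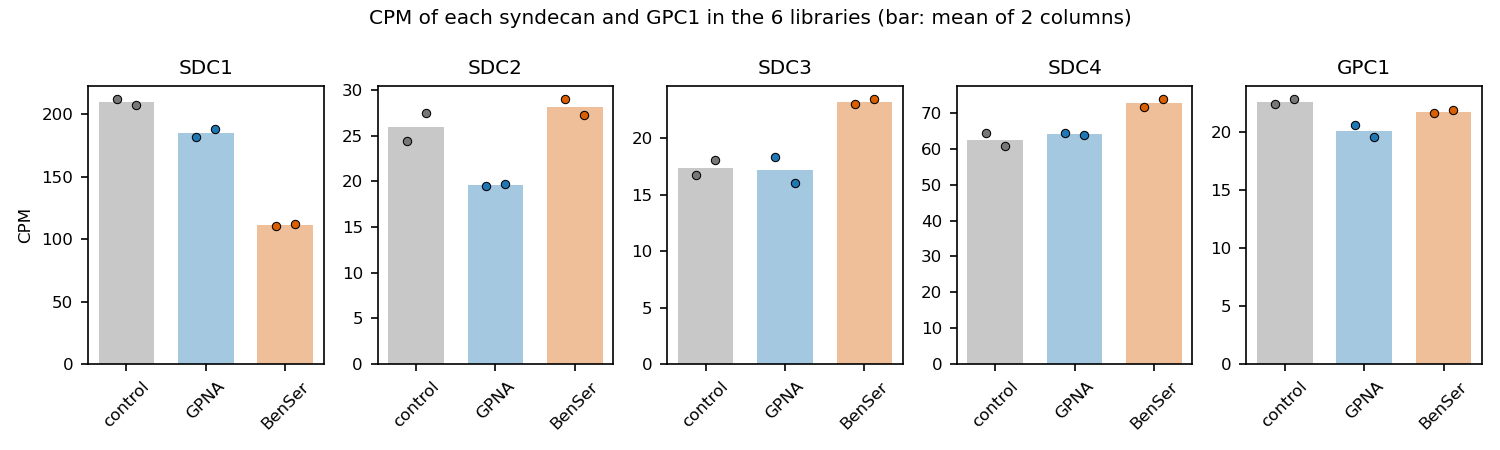
Level of each gene in CPM (vertical axis) by group, each gene on its own scale from 0, with points for the 2 libraries and a bar for their mean. Both SDC1 libraries of BenSer lie near 111 CPM, below the control libraries at 207.3 and 211.8 CPM, while for the other 4 genes no difference between groups reaches 1.5-fold.

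SDC1, syndecan-1, was lower with BenSer. It was measured at 211.8 and 207.3 CPM in the untreated libraries, 181.4 and 188.2 CPM in the GPNA libraries and 110.4 and 111.9 CPM in the BenSer libraries. Both BenSer libraries were lower than every other library, both GPNA libraries lay between, and no groups overlapped. The merged reads behind these levels were 9704, 9471 and 7126. The BenSer level differed from the control by −0.91 on the log2 scale (interval −0.95 to −0.87), so that the control was 1.88-fold above BenSer on the scale of CPM + 1, on which all folds here are given. On that scale, which understates the change of low genes, 13 of 18976 genes tested were at least as low in this comparison, SDC1 included. GPNA differed from the control by −0.18 (−0.22 to −0.14) and BenSer from GPNA by −0.73 (−0.77 to −0.68).

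SDC4, syndecan-4, which binds protein kinase C alpha through its cytoplasmic domain and takes part in focal adhesions, was slightly higher with BenSer. It was measured at 64.4 and 60.7 CPM in the untreated libraries, 64.4 and 63.8 CPM in the GPNA libraries and 71.6 and 73.8 CPM in the BenSer libraries. Both BenSer libraries were above all 4 others, and the GPNA and control libraries overlapped. The difference from the control was 0.21 with BenSer (0.15 to 0.28, 1.16-fold) and 0.04 with GPNA (−0.04 to 0.11), an interval that includes 0. The GPNA difference was 0.08 without the first control library and −0.01 without the second.

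SDC3, syndecan-3, was likewise higher with BenSer than in either other group. Its levels were 16.7 and 18.0 CPM in the untreated libraries, 18.3 and 16.0 CPM in the GPNA libraries and 23.0 and 23.4 CPM in the BenSer libraries. The GPNA libraries lay on either side of those of the control, and the BenSer libraries stood above both groups. The difference was 0.40 for BenSer against control (0.28 to 0.52, 1.32-fold), 0.42 for BenSer against GPNA (0.30 to 0.53) and −0.02 for GPNA against control (−0.15 to 0.12), which became 0.02 under TMM scaling, −0.11 without the first GPNA library and 0.07 without the second.

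SDC2, syndecan-2 (ENSG00000169439, chr8:97506041-97624018 of GRCh37, plus strand), was the member with the lowest GPNA value relative to control. Its levels were 24.5 and 27.5 CPM in the untreated libraries, 19.5 and 19.7 CPM in the GPNA libraries and 29.0 and 27.3 CPM in the BenSer libraries. Both GPNA libraries were below all others, and the second BenSer library fell within the range of the control. GPNA differed from the control by −0.39 (−0.51 to −0.27). On this scale, which understates the change of low genes, 193 of 18828 genes were at least as low. BenSer differed from GPNA by 0.50 (0.39 to 0.61, 1.41-fold). BenSer differed from the control by 0.11 (0.01 to 0.21), but the libraries overlapped and single libraries moved this value. It was 0.03 without the first control library and 0.19 without the second, and 0.07 without the first BenSer library and 0.15 without the second.

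GPC1, glypican-1, varied least with BenSer. It was measured at 22.3 and 22.8 CPM in the untreated libraries, 20.5 and 19.5 CPM in the GPNA libraries and 21.6 and 21.9 CPM in the BenSer libraries. Both GPNA libraries were the lowest, and the BenSer libraries lay just under those of the control, by a gap within counting error. The difference from the control was −0.16 with GPNA (−0.28 to −0.04) and −0.05 with BenSer (−0.16 to 0.06), which was −0.01 under TMM scaling. The difference of BenSer from GPNA was 0.11 (−0.0007 to 0.22).

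**Figure D2:**
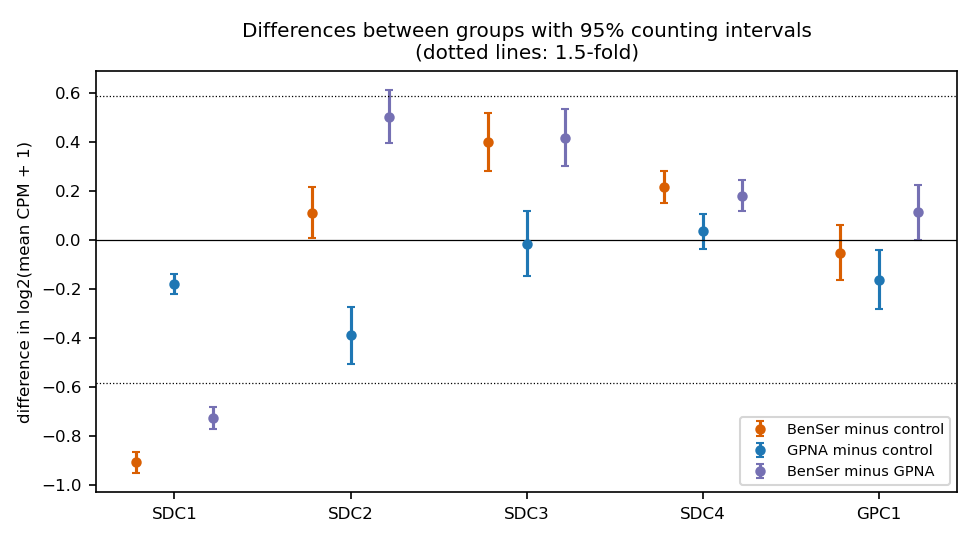
Differences of the 5 genes in log2(mean CPM + 1) for BenSer minus control, GPNA minus control and BenSer minus GPNA, with points for the difference and bars for the 95% counting interval. SDC1 is at −0.91 and SDC3 at 0.40 in the first comparison, and SDC2 is at −0.39 in the second.

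The values set out by comparison were as follows. With BenSer against control, 1 of 5 genes (SDC1, lower) was at least 1.5-fold different, where 3.54% of all 18976 genes tested were, 1.58% being lower and 1.96% higher. With GPNA against control, 0 of 5 genes were, where 0.404% of 18828 genes were, 0.34% being higher and 0.0637% lower. With BenSer against GPNA, 1 of 5 genes (SDC1, lower) was, where 1.87% of 19056 genes were, 1.05% being higher and 0.813% lower. The quasi-likelihood test of edgeR took both libraries of a group as samples of their own. It therefore sets libraries and not treatments against each other. With BenSer it called 4 of the 5 genes (SDC1 to SDC4), where it called 35.9% of all genes. With a replicate block SDC2 was lost and 3 were called, where 6189 of 18976 genes were. Without the block the test called 2 (SDC1 and SDC2) with GPNA, where it called 15.2% of all genes. For BenSer against GPNA it called 4 (SDC1 to SDC4), where it called 33.8%. All calls were at a Benjamini-Hochberg adjusted p under 0.05. At a lower threshold of 0.32 on the log2 scale, 2 of 5 genes passed with BenSer, 1 with GPNA and 3 for BenSer against GPNA, where 17.7%, 5.6% and 13.9% of all genes did. At 2-fold 0 of 5 passed in each comparison, where 0.485%, 0.0478% and 0.157% of all genes did. Because the genes were chosen with these contrasts known, nothing is read from these shares. The median of the 5 differences was 0.11 with BenSer, −0.16 with GPNA and 0.18 for BenSer against GPNA, beside medians over all genes tested of −0.03, −0.03 and −0.01. All 5 genes passed the filter on low reads in each comparison, and none of the members' libraries was at 0.

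**Figure D3:**
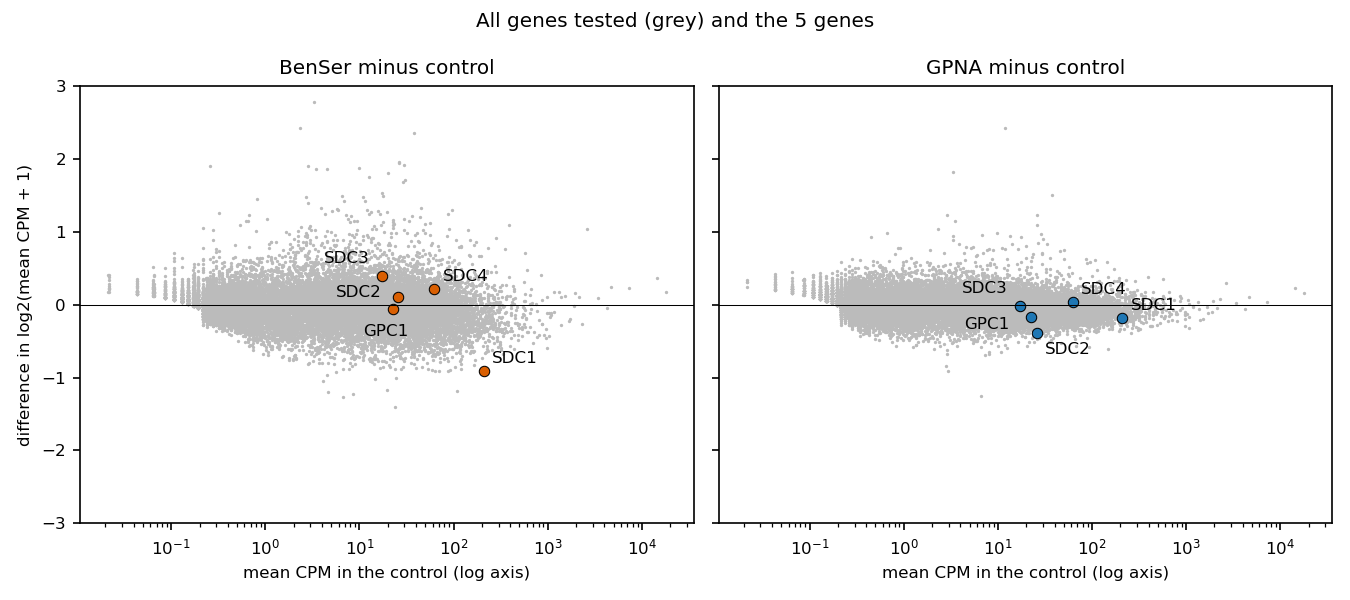
Difference from the control in log2(mean CPM + 1) (vertical axis) against the mean control level in CPM (horizontal log axis), with grey points for all genes tested and coloured points for the 5 genes, BenSer in one panel and GPNA in the other. SDC1 at 209.6 CPM lies near the lower edge of the BenSer cloud at −0.91, and SDC2 at 26.0 CPM near the lower edge of the GPNA cloud at −0.39.

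Summed over the 4 syndecans, the level was 315.4 CPM in untreated cells, 285.6 CPM after GPNA and 235.2 CPM after BenSer. The summed BenSer level differed from the control by −0.42 on the log2 scale (−0.45 to −0.39), and that of GPNA by −0.14 (−0.18 to −0.11). Without SDC1, the sum of SDC2, SDC3 and SDC4 was 105.9 CPM in untreated cells, 100.8 CPM after GPNA and 124.1 CPM after BenSer. That sum was thus higher with BenSer, by 0.23 (0.18 to 0.28). With GPNA its difference was −0.07 (−0.13 to −0.01), and −0.03 under TMM or DESeq2 scaling, which is nearer to 0 but inside that interval.

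Per kilobase of exon, SDC1 made up 63.9% of the syndecan level in untreated cells (63.1 to 64.7%), 61.7% after GPNA (60.9 to 62.5%) and 44.7% after BenSer (43.9 to 45.5%). SDC4 made up 26.4%, 29.6% and 40.5%, SDC2 7.01%, 5.79% and 10.0%, and SDC3 2.71%, 2.93% and 4.78%, in the same order of groups. The ratio of SDC1 to SDC4 per kilobase was 2.42 in untreated cells, 2.09 after GPNA and 1.11 after BenSer. With the length of the main transcript alone, the ratios were 2.77, 2.38 and 1.26 in the same order, so that SDC1 and SDC4 were nearest to each other after BenSer by either length.

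**Figure D4:**
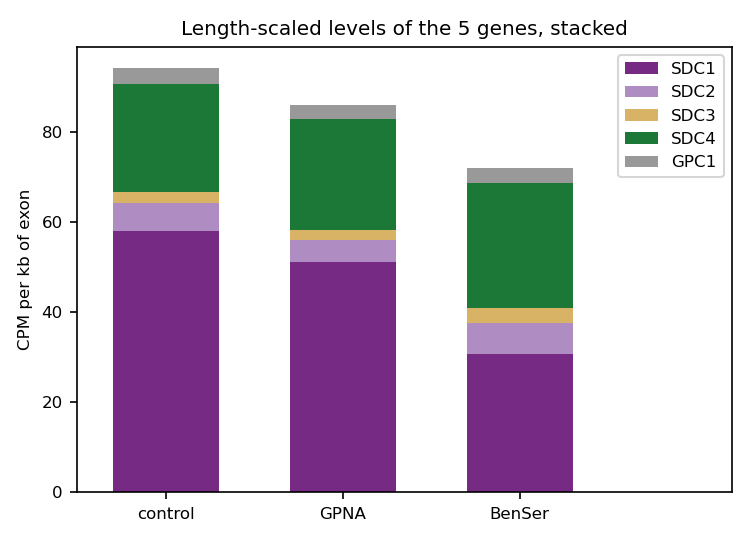
Stacked bars of the level in CPM per kb of exon for the 4 syndecans and GPC1 in the control, GPNA and BenSer groups, each bar part standing for the mean of 2 libraries. The SDC1 part shrinks from 58.0 in the control to 30.8 CPM per kb with BenSer, while the SDC4 part is 23.9 and 27.8 CPM per kb.

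The genes with the pattern most like that of each member were found by the distance between their pairs of log2 differences (BenSer and GPNA against the same control) among 7924 genes with a mean of at least 10 CPM. Those nearest to SDC1 were HIST1H4C, a histone gene (63.4, 54.6 and 33.4 CPM in control, GPNA and BenSer), CDCA3, a cell division gene (16.7, 14.5 and 8.66 CPM), and CEP55, which acts in the last step of cell division (58.5, 49.9 and 31.1 CPM). For SDC2 they were TGM2, a protein crosslinking enzyme (262.7, 200.1 and 279.2 CPM), LOXL2, a lysyl oxidase of the matrix (42.0, 32.4 and 45.9 CPM), and SH3PXD2B, an adaptor of invadopodia (18.1, 13.8 and 20.1 CPM). Among the nearest to SDC3 were ULK2 and STX3, whereas those nearest to SDC4 were SYTL4, MED19 and SLC30A7 and those nearest to GPC1 were FZR1, NCDN and C11orf68. The largest of these distances was 0.0484, for CEP55.

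The other genes of the pathway were followed from the core proteins through chain synthesis to the ligands, from lists chosen with earlier results of these data known. Counts of intervals clear of 0 stand beside those over all genes tested, of which 18.2% lay above 0 and 25.8% below with BenSer, and 9.78% above and 20.1% below with GPNA. An interval narrows with more reads, so genes with many reads clear 0 more readily than low ones. The shares over all genes are therefore no like comparison for lists of highly expressed genes. Of all genes tested with BenSer, 1.96% were at least 1.5-fold higher and 1.58% lower. With GPNA these shares were 0.34% and 0.0637%, and for BenSer against GPNA 1.05% and 0.813%. TMM or DESeq2 scaling raised the medians of these lists by 0.02 to 0.05 with BenSer and by 0.01 to 0.04 with GPNA. Of the other heparan sulphate core proteins, 13 of 15 were tested, and with BenSer 4 had an interval above 0 and 1 below, with 1 past 1.5-fold. That gene was GPC6, a glypican, at 8.23 CPM in untreated cells, 9.27 CPM after GPNA and 13.5 CPM after BenSer, a difference of 0.66 (0.50 to 0.82) for BenSer. With GPNA, 2 had an interval above 0 and 3 below.

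Other enzymes build the tetrasaccharide linker and polymerise heparan sulphate on these core proteins. None of the 6 linker and 5 polymerase genes tested passed 1.5-fold in a comparison. For BenSer against GPNA the linker genes had a median of 0.17 (−0.09 to 0.32 over the genes). The polymerase genes had a median of 0.21 (0.09 to 0.31), beside −0.01 over all genes tested. FAM20B, a kinase of the linker, was at 49.8, 47.6 and 44.7 CPM in control, GPNA and BenSer. Of the 6 linker genes, 4 were higher with BenSer (1 interval above 0 and 1 below, median 0.09) and 5 were lower with GPNA (0 above and 1 below, median −0.11). EXT1, a heparan sulphate polymerase subunit, was at 111.1, 101.6 and 124.4 CPM. All 5 polymerase genes were higher with BenSer and lower with GPNA than in the control, with 2 intervals clear of 0 in each case and medians of 0.06 and −0.04, except that under TMM or DESeq2 scaling 4 of 5 were lower with GPNA.

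Among the sulphotransferases and the epimerase that modify the chains, 10 genes were tested with BenSer, of which 3 had an interval above 0 and 1 below (median 0.04), and 11 with GPNA, of which 0 were above and 3 below (median −0.17). NDST1, the first enzyme of chain sulphation, was at 51.7, 43.1 and 55.0 CPM in control, GPNA and BenSer. Of the genes that trim sulphate or cleave chains outside the cell, SULF2, an extracellular 6-O-sulphatase, was highest at 229.1 CPM in untreated cells, 288.8 CPM after GPNA and 314.6 CPM after BenSer. Its difference from the control was 0.46 with BenSer (0.42 to 0.49) and 0.33 with GPNA (0.30 to 0.37). HPSE, the heparanase that cleaves the chains, named here after its values were seen, differed by −0.29 with BenSer (−0.48 to −0.10) and −0.29 with GPNA (−0.49 to −0.08). Of the 3 genes tested in this list, 1 interval lay above 0 and 1 below with either treatment, with medians of 0.17 for BenSer and −0.16 for GPNA.

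Chondroitin sulphate chains, which SDC1 and SDC4 can also carry, are built by a separate set of enzymes. Of 12 tested with BenSer, 6 had an interval above 0 and 1 below, with a median of 0.18. Past 1.5-fold were 2, both higher, where 1.96% of all genes tested were. With GPNA 2 intervals lay above 0 and 2 below, with a median of 0.01. The genes past 1.5-fold were CHSY3, a chondroitin synthase, at 2.07, 2.50 and 3.78 CPM in control, GPNA and BenSer, and UST, a uronyl 2-sulphotransferase, at 7.30, 8.46 and 11.9 CPM. Among the shedding and release genes, which cut syndecan ectodomains or glypican anchors, none passed 1.5-fold, and MMP14, a membrane protease, was at 90.8, 93.0 and 112.7 CPM. In that list 3 of 6 intervals lay above 0 and 0 below with BenSer (median 0.16), and 1 of 5 above and 0 below with GPNA (median 0.04).

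Of 11 cytoplasmic partners of syndecans tested, 1 was past 1.5-fold with BenSer, where 1.96% of all genes were at least 1.5-fold higher. That gene was SDCBP2, a paralogue of the PDZ protein syntenin. It was at 5.74 CPM in untreated cells, 7.64 CPM after GPNA and 11.4 CPM after BenSer, a difference of 0.88 (0.71 to 1.06) with BenSer and 0.36 (0.16 to 0.56) with GPNA. In the same list 5 genes had an interval above 0 and 3 below with BenSer, and 1 above and 4 below with GPNA.

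The soluble ligands of heparan sulphate held a gene past 1.5-fold in each direction with BenSer, of 11 tested. Among all genes tested, 1.96% were at least 1.5-fold higher and 1.58% lower. MDK, midkine, a heparin-binding growth factor that binds syndecans, was at 41.1 CPM in untreated cells, 43.0 CPM after GPNA and 82.3 CPM after BenSer, a difference of 0.98 (0.91 to 1.06). FGF1, an acidic fibroblast growth factor, was at 3.71, 3.30 and 1.82 CPM, a difference of −0.74 (−0.98 to −0.49) with BenSer. In the list of ligands 2 intervals lay above 0 and 3 below with BenSer (median 0.02), and 1 above and 3 below with GPNA (median −0.11). Of the 7 signalling receptors tested, all 7 had an interval below 0 with GPNA (20.1% of all genes), with a median of −0.24, whereas with BenSer 4 were above and 2 below. Under TMM or DESeq2 scaling all 7 were still lower with GPNA, with a median of −0.21. The GPNA intervals of CXCR4 and FGFR4 ended at −0.01 and −0.03, so whether they clear 0 depends on the scaling. KDR, a receptor of vascular endothelial growth factor, was the one past 1.5-fold for BenSer against GPNA, at 4.06 against 2.17 CPM. Of all genes, 1.05% were at least 1.5-fold higher in that comparison.

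Integrins and matrix proteins, which act beside syndecans at adhesion sites, had 4 of 14 genes past 1.5-fold with BenSer, all of them higher. Of all genes tested, 1.96% were at least 1.5-fold higher. LAMA3, a laminin chain that binds syndecans, was at 391.3, 509.1 and 834.3 CPM in control, GPNA and BenSer, a difference of 1.09 with BenSer (1.07 to 1.11). THBS1 (thrombospondin-1) was at 350.3, 379.4 and 594.4 CPM. ITGB4, an integrin of hemidesmosomes, was at 195.1, 252.9 and 310.4 CPM and ITGA2, a collagen receptor subunit, at 186.1, 202.6 and 295.5 CPM. MDK, FGF1, LAMA3 and THBS1 were also past 1.5-fold for BenSer against GPNA, where 1.87% of all genes were. In the list of integrins and matrix proteins 9 intervals lay above 0 and 2 below with BenSer (18.2% and 25.8% of all genes). With GPNA 7 lay above and 1 below (9.78% and 20.1%). Several genes of this list had many reads, such as ITGB1 with 61658 in the control, which narrows their intervals.

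**Figure D5:**
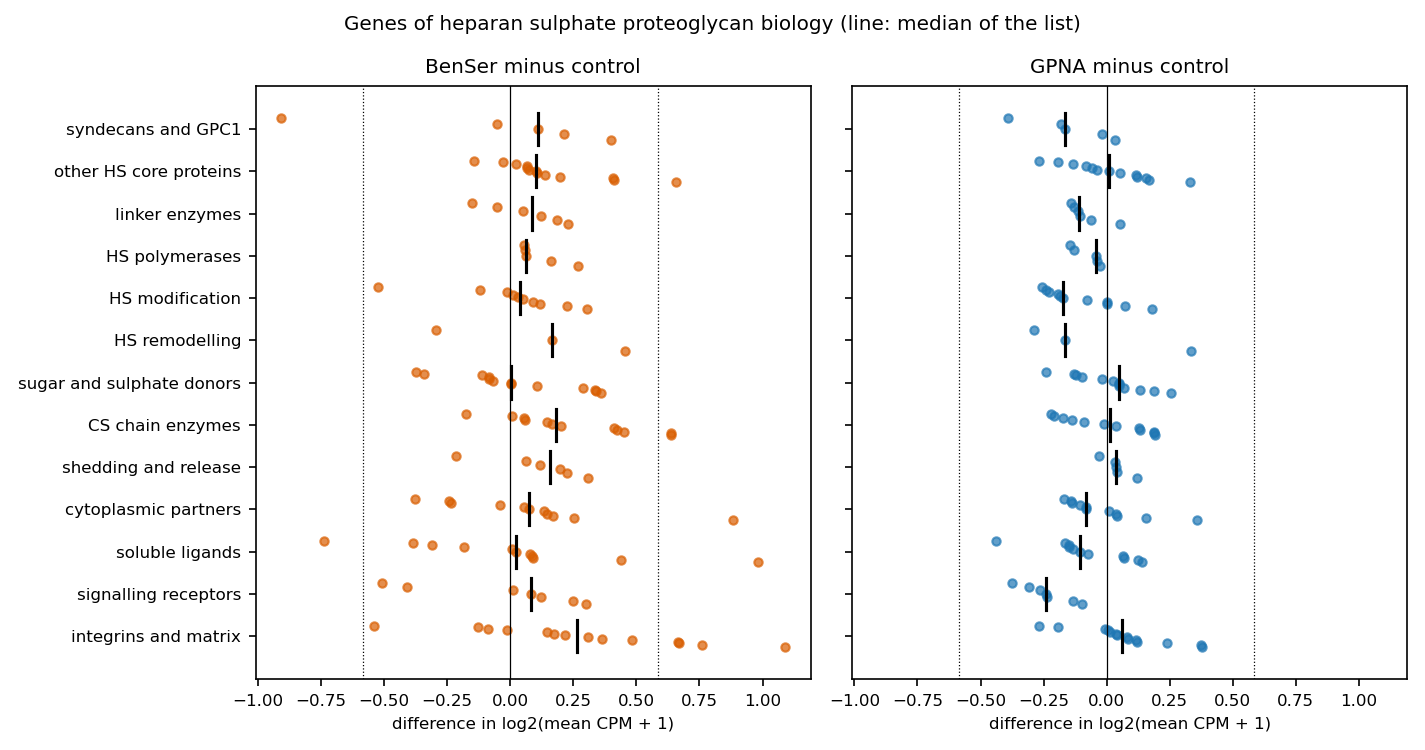
Difference from the control in log2(mean CPM + 1) (horizontal axis) of each tested gene of the 5 members and of the pathway lists (rows), with points for genes, a thick line for the list median and dotted lines at 1.5-fold, for BenSer and GPNA. SDC1 at −0.91 is the lowest point and LAMA3 at 1.09 the highest with BenSer, and all 7 signalling receptors lie below 0 with GPNA.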

How the data were processed

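Paired-end reads of stranded total RNA libraries were, per the methods and the submitters' processing notes, mapped to hg19/GRCh37.p13 with TopHat2 and Bowtie2 and counted per gene (HTSeq 0.6.2p2, DESeq). The strand setting of the counting is not given in the sources used here. The authors deposited CPM (reads per gene divided by the library total, per 1e6), 4 value columns per group, with log2 fold change, average log2 CPM, p-value and FDR of their own test, which were not used. The methods speak of 4 replicates per group, whereas the labels name 2 libraries. Columns 1 and 2 matched labels, and the other 8 of 16 value columns were not used. The rows of the 5 genes had been looked at in full, those columns and the authors' comparisons included. Doses come from the paper and times from the labels.

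All CPM values of the labelled libraries (100%) gave whole reads within 0.01, and these reads were recovered. Columns 1 and 2 were compared by chi-square, leaving out genes under 20 reads, and counted as 1 sample. Mean CPM was compared as log2(CPM + 1), which understates the change of low genes, leaving out genes whose mean was under 5 reads in both groups. The planned design allowed no test. The quasi-likelihood test of edgeR (4.0.16, R 4.3.3), with the columns as 2 samples, was an alternative that compares libraries and not treatments. At a Benjamini-Hochberg adjusted p under 0.05 it called 6803, 2853 and 6436 genes for BenSer minus control, GPNA minus control and BenSer minus GPNA. Size factors came from DESeq2 (1.42.0). The methods speak of replicate experiments in general, but do not say whether columns 1 and 2 came from separate cultures. The same-numbered columns are not known to share a culture.

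The members and lists were chosen with earlier results of these data known. Named genes are the 5 members, list genes of at least 1 CPM that were at least 1.5-fold different in a comparison, otherwise the highest gene of a list, and for each member the 3 nearest genes of at least 10 CPM. Some results under this rule are not reported here. Genes outside this rule were chosen after their values were seen, as were the motifs, the promoters printed and the summed levels. Exon lengths (GENCODE lifted to GRCh37) were found for 18931 genes. Promoters are from RefSeq (GRCh38.p14), in which 4 of the 5 genes were used. Levels between genes are CPM per kb of all annotated exons. Scripts were tested on simulated data and run with Python 3.11.15, numpy 2.4.6, pandas 2.3.3, scipy 1.17.1 and matplotlib 3.10.9.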

Additional observations from a re-analysis of the deposited data

How the results depend on the processing

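The alternatives were other pseudocounts, filters, scalings, fold thresholds, single columns left out and edgeR on the recovered reads. Of 120 alternative values of the members' log2 differences, 118 stayed inside the counting interval, and the largest move was 0.0963. The other 2 were SDC1 for BenSer minus control, at −0.86 with TMM and −0.86 with DESeq2 size factors instead of −0.91. The sign changed in 6, all of them SDC3 or SDC4 for GPNA minus control, whose intervals include 0. Values with a column left out reuse part of the reads that made the interval. That they stayed inside it was therefore largely fixed in advance and is no independent support. The scalings shifted the median of all genes by at most 0.04. The threshold of 1.5-fold was also set at 0.32 (lower) and 1.0 (2-fold) on the log2 scale. For BenSer minus control the count of 1 member became 2 at the lower threshold, 0 at 2-fold, and 4 (SDC1 to SDC4) by edgeR without a replicate block. With a replicate block it was 3, SDC2 being lost. For GPNA minus control the count of 0 became 1 at the lower threshold and 2 (SDC1 and SDC2) by edgeR without or with the block. For BenSer minus GPNA the count of 1 became 3 at the lower threshold, 0 at 2-fold and 4 by edgeR without or with the block. Counts of all genes at least 1.5-fold different went from 671, 76 and 356 to 2602, 1531 and 2173 with a pseudocount of 0.1, in the order BenSer minus control, GPNA minus control, BenSer minus GPNA. The counts by edgeR with the replicate block were 6189, 2212 and 6326. The deviations of same-numbered columns correlated at 0.02, 0.01 and 0.01. Since columns of a group differed little beyond read sampling, this cannot show whether same-numbered columns share more than a number. Taking the main transcript's length, SDC1 made up 65.4%, 63.4% and 46.3% of the syndecan level in control, GPNA and BenSer. This setting, and shares with a column left out, were chosen after seeing the data. The scaling by reads on the listed genes was also adjusted after its first values were seen, to keep the weight of the pseudocount. The cause of these moves was not tested. Depth limits SDC3, with 805 control reads, most.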

Other observations

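The enzymes that supply sugar and sulphate donors for the chains of syndecans and glypicans showed no common direction. Of 13 such genes tested with BenSer, 5 had an interval above 0 and 4 below, with 0 past 1.5-fold, and with GPNA 3 lay above and 4 below. GFPT1, the rate-limiting enzyme of the hexosamine pathway, which takes its nitrogen from glutamine, was at 83.1 CPM in the control, 91.3 CPM with GPNA and 89.5 CPM with BenSer. Of the next enzymes of that pathway, named here after their values were seen, GNPNAT1 differed from the control by −0.37 (−0.45 to −0.30) with BenSer, PGM3 by −0.08 (−0.19 to 0.03) and UAP1 by −0.34 (−0.41 to −0.27). UGDH, which makes UDP-glucuronic acid and was also chosen after its value was seen, was higher with BenSer by 0.36 (0.28 to 0.44). With GPNA the differences were −0.12 for GNPNAT1, 0.19 for PGM3 (0.08 to 0.30), −0.02 for UAP1 and −0.10 for UGDH.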
